A study of Mus musculus with 1 sample.

Results

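Rhox5, Rhox8, Rhox10, Rhox13 and Esx1 are X-linked homeobox genes of the mouse. They were taken by symbol, 5 of the 27998 genes listed for a single-cell RNA sequencing library of the postnatal testis, and each symbol occurred once in the list. The question was which of them are found in Sertoli cells, which in germ cells, and at which germ cell stage. The Rhox genes (reproductive homeobox on the X chromosome) encode DNA-binding proteins expressed mostly in the testis, ovary and placenta, and they lie side by side in 1 cluster. Rhox5 (also called Pem) and Rhox8 are known from Sertoli cells, the somatic cells that nurse germ cells. Rhox10 is known to promote the formation of spermatogonial stem cells (SSCs), and Rhox13 is known from differentiating male germ cells. Esx1, a homeobox gene outside the cluster, is known from the placenta and from male germ cells.

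The library came from wild-type C57BL/6 mice (Zscan2+/+) at postnatal day 8. Cells of 3 mice were pooled in equal numbers after selection for THY1, a surface protein of undifferentiated spermatogonia, with some unselected testis cells added back. The labels name no altered allele and no treatment for these mice, and the Zscan2−/− library was not analysed here. As all cells came from 1 library there are no replicates and no test was made. Ranges in parentheses are 95% intervals, computed exactly for counting error alone. The matrix held 970 barcodes, none listed more than once, with 2655 to 44915 unique molecular identifiers (UMIs, counts of captured RNA molecules) per barcode, and 920 cells were kept.

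Cells were clustered with every Rhox gene and Esx1 left out of the genes that shaped the clusters and of the markers that named them. The classes were therefore drawn without the counts of the genes described, although genes that vary with them were used. There were 256 Sertoli-like cells in 3 clusters and 324 germ cells in 4 clusters, and the other clusters were stromal-like (185 cells), peritubular myoid-like (94), T cell-like (26) and macrophage-like (35), with none named from the Leydig or endothelial markers. The genes leading the T cell-like cluster mixed lymphocyte genes such as Cd3g and Nkg7 with Rgs5 and Ndufa4l2, known from pericytes. The median depth was 18216.5 UMIs in germ cells and 8344.5 in Sertoli-like cells. Sertoli-like and germ cells are described here by markers from the lists that named them, so the values are not a check of the names. The Sertoli factor Sox9 was at 452 CPM (UMIs per 1000000 UMIs of the class) in Sertoli-like cells and 5.40 in germ cells, and the germ cell helicase Ddx4 was at 1.73 and 134 CPM. The germ cells were 113 SSC-like cells, then 79 progenitor-like cells, then 132 differentiating-like cells, the first and second kinds together being called undifferentiated. Along this order the SSC regulator Id4 was at 21.1, 11.2 and 0.602 CPM, and the receptor Kit at 8.50, 4.21 and 86.7 CPM. Both are on the lists that named the stages, and not every listed marker followed its stage. Nanos2, of the SSC list, was not higher in SSC-like than in progenitor-like cells. Sox3, of the progenitor list, was not highest in progenitor-like cells. The differentiating-like cells formed 2 clusters. They were told apart by a list of 8 meiotic entry genes, whose mean level was 144 CPM in a cluster of 32 cells and 45.5 CPM in a cluster of 100 cells, and are called the meiotic-high and meiotic-low clusters. Sycp1, at 748 and 292 CPM, had the highest level of the 8 in both and made up most of each mean.

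In the GENCODE annotation of GRCm38, which is the mm10 assembly of the files, the 34 listed Rhox genes span 916 kb of chromosome X. Rhox5 (ENSMUSG00000095180) lies at chrX:37804842-37808876 on the plus strand, Rhox8 (ENSMUSG00000064137) at chrX:37874778-37878944 on the minus strand, Rhox10 (ENSMUSG00000053909) at chrX:38066475-38071691 and Rhox13 (ENSMUSG00000050197) at chrX:38121219-38129967, both on the plus strand. Esx1 (ENSMUSG00000023443) lies on the minus strand at chrX:137115397-137122083, 99 Mb from the cluster. No other annotated gene overlaps any of the 5. In the last 300 bases of their transcripts, where reads of this 3′ method fall, no stretch of 50 bases was shared with another gene.

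The bases just upstream of the RefSeq start are shown for Rhox10, Rhox13 and Esx1, so that the starts of Rhox13 and Esx1, both higher in differentiating-like cells, can be set beside that of Rhox10, which was not. Each is the 250 bases before the RefSeq start in GRCm38.p6, read 5′ to 3′ on the strand of the gene, and capitals mark CpG dinucleotides. The RefSeq start is that of GENCODE for Rhox10, and for Esx1 it is the start of 1 of the 3 GENCODE transcripts, while another starts farther upstream, so that the stretch shown lies inside the gene as placed above. For Rhox13 it lies 379 bases before the GENCODE start. Rhox5 is not shown, as its RefSeq start lies 50.2 kb before that of GENCODE. Rhox10 is chrX:38066225-38066474 on the plus strand, Rhox13 chrX:38120590-38120839 on the plus strand and Esx1 chrX:137120327-137120576 on the minus strand.
Rhox10: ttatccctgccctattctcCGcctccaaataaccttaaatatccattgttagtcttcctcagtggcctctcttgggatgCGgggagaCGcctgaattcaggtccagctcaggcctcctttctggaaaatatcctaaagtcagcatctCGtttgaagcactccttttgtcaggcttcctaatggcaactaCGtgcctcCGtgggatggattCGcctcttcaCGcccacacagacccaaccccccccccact
Rhox13: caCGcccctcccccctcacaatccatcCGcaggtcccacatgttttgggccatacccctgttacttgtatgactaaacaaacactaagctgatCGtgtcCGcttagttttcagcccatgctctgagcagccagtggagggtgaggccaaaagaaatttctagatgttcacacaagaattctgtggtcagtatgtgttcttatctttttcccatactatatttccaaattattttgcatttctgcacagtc
Esx1: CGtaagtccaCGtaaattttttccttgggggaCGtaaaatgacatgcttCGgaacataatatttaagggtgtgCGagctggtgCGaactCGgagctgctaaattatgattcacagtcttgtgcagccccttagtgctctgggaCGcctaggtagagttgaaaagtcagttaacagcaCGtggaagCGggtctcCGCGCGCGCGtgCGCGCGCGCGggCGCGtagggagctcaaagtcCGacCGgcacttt
The Esx1 stretch held 24 CpG dinucleotides, while 88% of the 32851 RefSeq stretches of this length held fewer and their median was 6.0. Rhox10 had 8 and Rhox13 had 4. Their GC content was 54% for Esx1, 52.4% for Rhox10 and 45.2% for Rhox13. Each stretch was searched on both strands for 5 short motifs. CACGTG, an E-box, was found once in Esx1, 75 bases before the RefSeq start, and in 6.02% of all stretches. AGATAA, bound by GATA4 and its relatives, was found once in Rhox13, on the other strand 52 bases before the RefSeq start, and in 9.99% of all stretches. CNCCTCAG, the core described for STRA8 (in 6.42% of all stretches), TGACGTCA (1.55%) and TATAAA (12.4%) were in none of the 3, and no motif of the 5 was in Rhox10. These are matches of letters and no binding was measured.

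Rhox8 was the Sertoli gene of the group. Of its 5485 UMIs, 5290 (96.4%) were in Sertoli-like cells, at 2283 CPM (2221 to 2345), against 122 UMIs and 22.0 CPM (18.2 to 26.2) in germ cells. This is a 104-fold difference (86.9 to 125), or 6.70 on the log2 scale (6.44 to 6.97). Among the 11747 genes with at least 20 UMIs in these 2 classes, 48 had a higher ratio of Sertoli-like to germ cell level. Every one of the 256 Sertoli-like cells had a Rhox8 UMI, with 1 to 71 UMIs per cell and a median of 19.

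Rhox8 differed between the Sertoli-like clusters. It was at 2620 CPM (2528 to 2715) in the 133 cells of the first, 2085 CPM (1979 to 2196) in the 78 cells of the second and 1740 CPM (1623 to 1864) in the 45 cells of the third. The intervals did not overlap, and the log2 ratios were 0.33 (0.24 to 0.42) for the first over the second and 0.26 (0.14 to 0.39) for the second over the third. Per-cell levels overlapped widely between clusters, from 45.6 to 5788 CPM in the first, 331 to 4228 in the second and 753 to 3649 in the third. The genes leading the first cluster included Amh and Cst9, those of the second Edn1 and Nr0b1, and those of the third the division genes Prc1 and Ube2c, all picked out after their values were seen.

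Outside Sertoli-like cells Rhox8 was at a low level in every class. Its CPM was 29.0 in stromal-like cells, 24.2 in the T cell-like cluster, 18.9 in myoid-like cells and 15.5 in macrophage-like cells. By germ stage it was at 23.9 CPM (18.2 to 30.8) in SSC-like cells, 19.0 (12.5 to 27.6) in progenitor-like, 18.3 (11.6 to 27.5) in meiotic-low and 32.0 (17.0 to 54.7) in meiotic-high cells, with overlapping intervals. The differentiating-like over undifferentiated log2 ratio was −0.03 (−0.63 to 0.55). The germ cell level of Rhox8 was 0.962% (0.797 to 1.15%) of the Sertoli-like level. For the 6 Sertoli markers Sox9, Amh, Wt1, Cldn11, Aard and Gstm6 the same percentage ran from 0.676 to 1.50%, with a median of 1.15%. Rhox8 in germ cells was thus within the range that markers of the other lineage had there. Where its germ cell counts came from was not tested. A Rhox8 UMI was found in 32.1% of germ cells, and in 10.0% when each cell was thinned to 5000 UMIs (279 of the 324 germ cells were deep enough, and 236 of the 256 Sertoli-like cells, of which 99.6% had one).

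**Figure D1:**
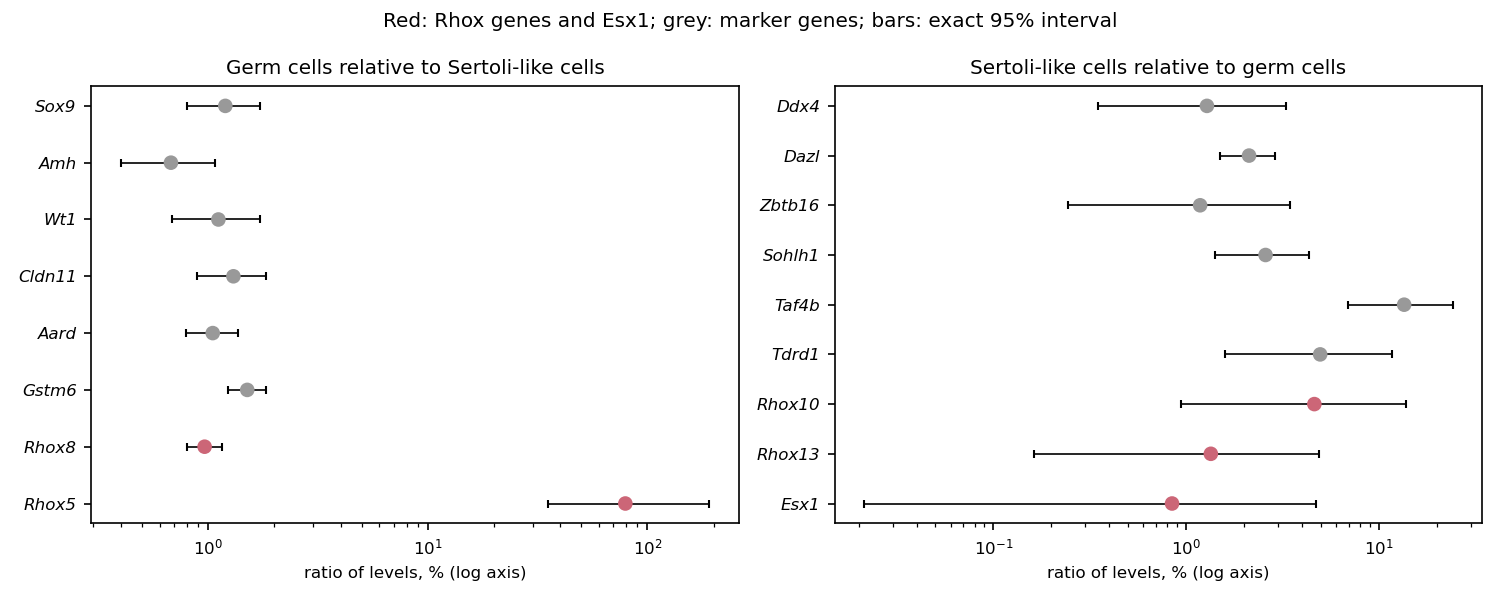
Level in the other lineage as a percentage of the level in the source lineage, on a log axis, for marker genes (grey) and the homeobox genes (red), with exact 95% intervals; left, germ cells relative to Sertoli-like cells, and right, Sertoli-like cells relative to germ cells. Rhox8 sits at 0.962% among the Sertoli markers, Rhox10 (4.64%) and Rhox13 (1.35%) sit within the range of the germ cell markers, Esx1 (0.847%) sits below it with an interval that overlaps it, and Rhox5 sits apart at 79.3%.

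Rhox5 was scarce and was found in both lineages. It had 31 UMIs in 25 cells of the whole library. Germ cells held 19 of them, at 3.42 CPM (2.06 to 5.34), and Sertoli-like cells 10, in 7 cells, at 4.31 CPM (2.07 to 7.94). The log2 ratio of Sertoli-like to germ cells was 0.34 with an interval from −0.93 to 1.51, so no difference between the lineages was detectable at this depth. The remaining 2 UMIs were in 1 stromal-like and 1 myoid-like cell. Germ cells were 5.20-fold (1.25 to 46.1) above the somatic cells other than Sertoli-like, on 19 and 2 UMIs. The germ cell level was 79.3% (35.1 to 191%) of that in Sertoli-like cells, above the 0.676 to 1.50% of the Sertoli markers.

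Within germ cells the Rhox5 counts lay at the undifferentiated end. SSC-like cells had 15 of the 19, at 6.07 CPM (3.40 to 10.0), and progenitor-like cells had 3, at 2.11 CPM (0.434 to 6.16). Meiotic-high cells had 1, and none was seen in the 100 meiotic-low cells, where the interval reached up to 2.94 CPM. The log2 ratio of differentiating-like to undifferentiated cells was −2.94 (−8.32 to −0.28) on 1 and 18 UMIs, and that of SSC-like to progenitor-like cells was 1.53 (−0.29 to 3.96). A Rhox5 UMI was in 4.94% of germ cells and 2.73% of Sertoli-like cells, and in 1.43% and 0.847% after thinning. Shares this low cannot order the classes.

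Rhox10 was a germ cell gene, and its lowest CPM among germ clusters, in the meiotic-high cluster, rests on 3 UMIs. Germ cells held 155 of 159 UMIs, at 27.9 CPM (23.7 to 32.7) and in 102 cells, and Sertoli-like cells held 3, at 1.29 CPM (0.267 to 3.78). The log2 ratio of Sertoli-like to germ cells was −4.43 (−6.72 to −2.86), a level 21.6-fold (7.24 to 106) higher in germ cells. The Sertoli-like level was 4.64% (0.946 to 13.8%) of the germ cell level. The 6 germ cell markers Ddx4, Dazl, Zbtb16, Sohlh1, Taf4b and Tdrd1 had 1.18 to 13.6% there, with a median of 2.36%.

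By stage, Rhox10 was at 21.5 CPM (16.1 to 28.1) in SSC-like, 37.2 (27.9 to 48.7) in progenitor-like, 36.7 (26.8 to 48.9) in meiotic-low and 7.39 (1.52 to 21.6) in meiotic-high cells, the last on 3 UMIs in 3 cells. The progenitor-like level was above the SSC-like level, with a log2 ratio of SSC-like to progenitor-like cells of −0.79 (−1.37 to −0.22), and progenitor-like and meiotic-low cells did not differ beyond counting error (−0.02, from −0.62 to 0.58, meiotic-low over progenitor-like). Meiotic-high cells were below meiotic-low cells by a log2 ratio of −2.31 (−4.64 to −0.67). After thinning, the share of cells with a Rhox10 UMI did not show this drop. It was 4.50% in SSC-like, 14.1% in progenitor-like, 10.6% in meiotic-low and 9.68% in meiotic-high cells, with overlapping intervals. The last was 3 of 31 cells (2.04 to 25.8%), and shares on so few cells cannot order the clusters. For both differentiating-like clusters together the log2 ratio to undifferentiated cells was 0.12 (−0.40 to 0.62). The meiotic-low cluster was itself uneven. Its 41 deeper cells that had clustered apart from the rest in the first round (median 19661 UMIs) had Rhox10 at 19.5 CPM (11.1 to 31.7), while 49 shallow cells (median 4079 UMIs) had 73.0 CPM (43.3 to 115) on 18 UMIs. The remaining 10 cells, the deepest (median 21457 UMIs), had 64.2 CPM (33.1 to 112) on 12 UMIs. In the first round these 10 had clustered with the germ cells led by genes such as Ret and Zbtb16. The 3 sets thus differed in first-round cluster as well as in depth, and what their levels follow was not tested. The interval of the 41 deeper cells overlapped that of the meiotic-high cluster.

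Rhox13 was found in germ cells at every stage and was highest in the meiotic-high cluster. Germ cells held 356 of 362 UMIs, at 64.1 CPM (57.6 to 71.1), and Sertoli-like cells 2. The log2 ratio of Sertoli-like to germ cells was −6.21 (−9.27 to −4.35), a level 74.3-fold (20.4 to 616) higher in germ cells. The Sertoli-like level was 1.35% (0.162 to 4.90%) of the germ cell level, within the range of the germ cell markers.

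Among undifferentiated cells Rhox13 was at 39.3 CPM (31.8 to 47.9) in SSC-like and 25.3 (17.7 to 35.0) in progenitor-like cells, a log2 ratio of 0.64 (0.07 to 1.23). This order is opposite to that of Rhox10. Meiotic-low cells were at 74.1 CPM (59.8 to 90.8) and meiotic-high cells at 320 CPM (267 to 380). Of the 3 meiotic-low sets named for Rhox10, the 41 deeper cells had 82.8 CPM of Rhox13 (64.3 to 105). The 49 shallow cells had 77.1 (46.4 to 120), and the remaining 10 had 32.1 (11.8 to 69.8) on 6 UMIs. Differentiating-like cells as a whole were higher than undifferentiated cells by 1.98 on the log2 scale (1.66 to 2.30), and the meiotic-high cluster by 3.23 (2.87 to 3.59). A Rhox13 UMI was in 55.8% of SSC-like, 30.4% of progenitor-like, 53% of meiotic-low and all 32 meiotic-high cells. After thinning to 5000 UMIs the shares were 19.8%, 16.9%, 24.2% and 67.7%, beside 0.424% of Sertoli-like cells. Each meiotic-high cell had 1 to 10 UMIs, with a median of 3.

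Esx1 was a germ cell gene concentrated in the meiotic-high cluster. Of 285 UMIs, 283 were in germ cells, at 50.9 CPM (45.2 to 57.2), and 211 of these were in the 32 meiotic-high cells. Sertoli-like cells had 1 UMI, a log2 ratio to germ cells of −6.88 (−12.2 to −4.39), and that level was 0.847% (0.0214 to 4.76%) of the germ cell level, below the lowest germ cell marker at 1.18% by less than its counting error. Esx1 was at 5.26 CPM (2.80 to 9.00) in SSC-like and 5.62 (2.42 to 11.1) in progenitor-like cells, which did not differ beyond counting error. It was at 40.7 CPM (30.3 to 53.5) in meiotic-low and 519 CPM (452 to 594) in meiotic-high cells.

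The differentiating-like level of Esx1 was 29.3-fold (18.7 to 48.1) that of undifferentiated cells. Of the 10519 genes with at least 20 UMIs in these classes, 8 had a higher ratio, a minimum as counts of 0 were set to 3. The meiotic-high cluster was 12.8-fold (9.37 to 17.7) above the meiotic-low cluster and 96.3-fold (61.4 to 159) above undifferentiated cells. All 32 meiotic-high cells had an Esx1 UMI, with 1 to 17 per cell and a median of 6, against 25% of meiotic-low, 7.59% of progenitor-like and 10.6% of SSC-like cells. Thinned to 5000 UMIs the shares were 90.3%, 15.2%, 2.82% and 3.60%, and 0.424% in Sertoli-like cells.

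**Figure D2:**
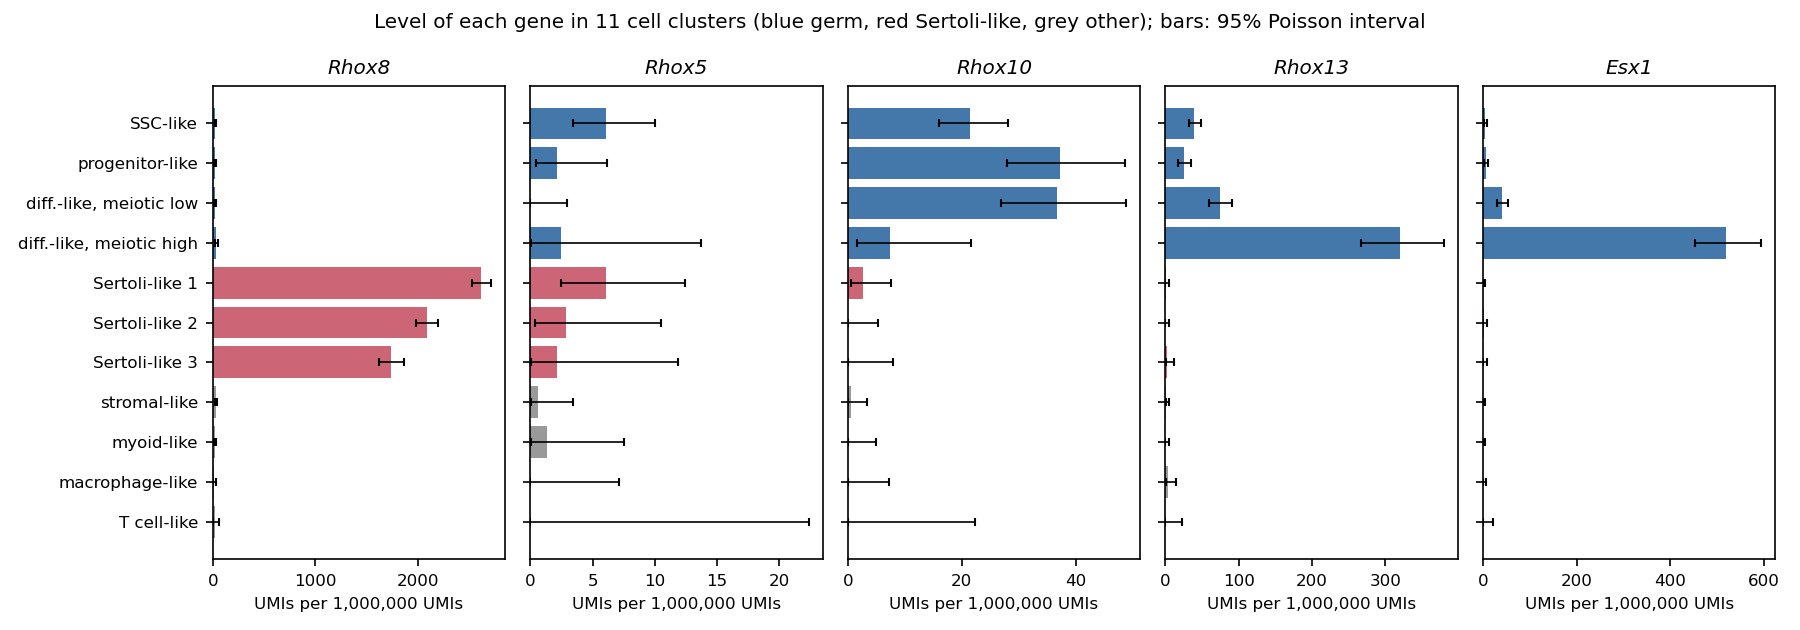
Level of each gene in the 11 clusters of the library, as UMIs per 1000000 UMIs on a linear axis that differs between genes, with exact 95% Poisson intervals; blue bars are germ cell clusters, red Sertoli-like and grey other somatic clusters. Rhox8 is high in the 3 Sertoli-like clusters, Rhox10 is lowest among germ clusters in the meiotic-high one at 7.39 (on 3 UMIs), and Rhox13 and Esx1 reach 320 and 519 there.

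Rhox13 and Esx1 were also compared within single germ cells. Both were detected in 7 of 113 SSC-like, 3 of 79 progenitor-like, 17 of 100 meiotic-low and 32 of 32 meiotic-high cells. Rhox10 was detected in 3 of the 32 meiotic-high cells, which had both other genes as all 32 did. Detection of a pair depends on depth, and the median depth was 22353 UMIs in SSC-like, 19301 in progenitor-like, 8736 in meiotic-low and 12208 in meiotic-high cells. The cells with the most frequent pair were therefore not the deepest. The barcode with the most hemoglobin UMIs was in the progenitor-like cluster, and leaving it out did not change the 32 cells. Whether the meiotic-high cluster stood apart depended on how variable genes were chosen. With the vst method of Seurat the 2 differentiating-like clusters held 81 cells (median 17411 UMIs) and 70 cells (median 4037.5 UMIs). The larger held the same 32 cells together with others. Its leading genes included Kit and Stra8, which were among those leading the meiotic-low cluster, beside Esx1 and Ly6k. Both Rhox13 and Esx1 were found in 49 of its cells. Rhox10 was at 20.3, Rhox13 at 143 and Esx1 at 178 CPM in it.

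**Figure D3:**
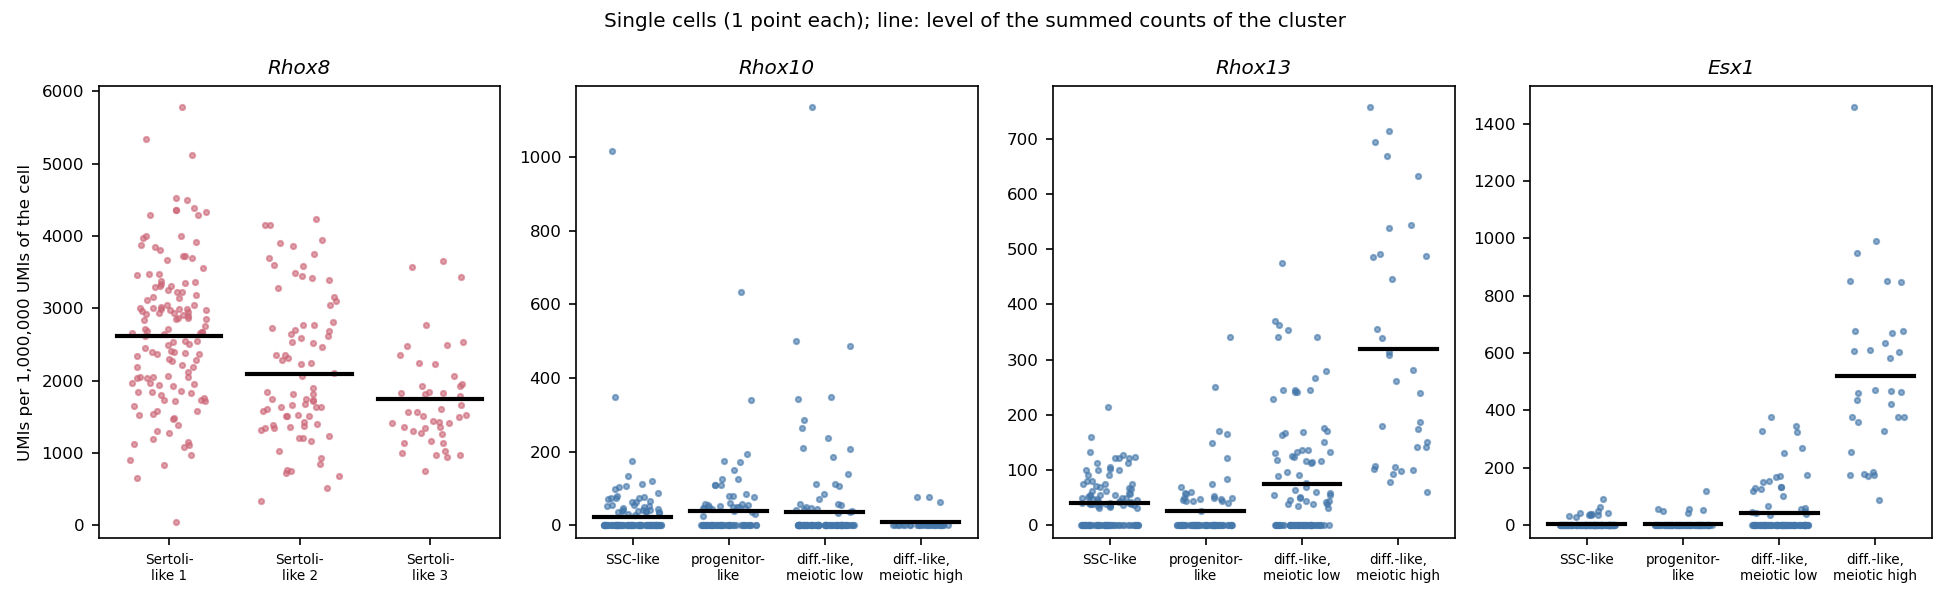
UMIs per 1000000 UMIs of each cell, 1 point per cell, for Rhox8 in the Sertoli-like clusters and for Rhox10, Rhox13 and Esx1 in the germ cell clusters, with lines at the level of the summed counts. Every meiotic-high cell lies above 0 for Rhox13 (59.2 to 758) and Esx1 (89.3 to 1458), while 29 of the 32 lie at 0 for Rhox10.

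The meiotic-high cluster differed in other genes of the germ line as well. Of the 8 meiotic entry genes, 7 had a higher level in it than in the meiotic-low cluster, and Spo11, the enzyme that makes meiotic DNA breaks, had no UMI in either, all 18 of its germ cell UMIs being in undifferentiated cells (4.62 CPM). Meioc, which stabilises the meiotic programme, was at 103 against 5.58 CPM, Prdm9, which marks recombination sites, at 59.1 against 6.38, and the recombinase Dmc1 at 76.3 against 22.3. Stra8, the retinoic acid target that opens meiosis, was at 1000 and 887 CPM, and Kit at 39.4 and 102. Both are on the differentiating list, as are Sycp3 (401 and 234), Dmrtb1 (130 and 67.0) and Uchl1 (327 and 1109). Uchl1 was at 652 CPM in undifferentiated cells, above the meiotic-high level, while the others on the list were lower there. No marker of that list was among the 10 leading genes of the meiotic-high cluster. Because the meiotic entry list chose the cluster, its values are a description.

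Values for genes listed as background to Rhox function are given by class. The follicle-stimulating hormone receptor Fshr was at 19.0 CPM in Sertoli-like cells and had no UMI in germ cells (an interval up to 0.664 CPM). Gata4 and Nr5a1, transcription factors of gonadal somatic cells, were at 145 and 93.2 CPM in Sertoli-like cells and at 1.98 and 2.52 CPM in germ cells. Of 2 genes described as Rhox5 targets, Ins2 was at 38.0 CPM in Sertoli-like cells and 0.720 in germ cells, and Unc5c had no UMI in either. Nanos2, a repressor of differentiation, was at 13.8 CPM in SSC-like cells, at 18.3 CPM in progenitor-like cells, and had no UMI in either differentiating-like cluster. Zbtb16, a factor of undifferentiated spermatogonia, was at 110 CPM in SSC-like cells, 188 in the progenitor-like cluster, 50.2 in meiotic-low and 9.85 in meiotic-high cells. Dazl, a germ cell RNA-binding protein, was at 733, 654, 950 and 1137 CPM in the same order, and Dmrt1 at 285, 320, 345 and 207, with 135 in Sertoli-like cells.

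The members were set against all genes. At least 4-fold, 13% of the 11747 genes tested were higher in Sertoli-like cells and 13.2% were lower. Of the 5 homeobox genes, all tested, 1 was higher (Rhox8) and 3 were lower (Rhox10, Rhox13 and Esx1). These 3 reached 20 UMIs only through germ cells (155, 356 and 283 UMIs, against 3, 2 and 1 in Sertoli-like cells). Their count is therefore a description. Between differentiating-like and undifferentiated cells, 1.35% of 10519 genes were at least 4-fold higher and 3.4% were lower. Of the 4 members tested, 1 was higher (Esx1), none was lower, and Rhox13 fell just short of this limit at 3.93-fold (3.16 to 4.91), while Rhox5 was under the minimum of 20 UMIs. The median log2 ratio of all genes tested was −0.10 in the first comparison and 0.09 in the second.

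The other 30 Rhox genes were nearly all in germ cells where they were seen. They had 1104 UMIs in germ cells and 12 in somatic cells, 8 of these in Sertoli-like cells. No UMI was found for 8 of the genes, 13 had fewer than 20, and 9 had more: Rhox1, Rhox2a, Rhox2c, Rhox2d, Rhox2f, Rhox2g, Rhox2h, Rhox7a and Rhox7b. All 9 were at least 4-fold lower in Sertoli-like cells, as were 13.2% of all genes tested. Their median log2 ratio of −2.61 rests on limits for those with no Sertoli-like UMI. They reached 20 UMIs through germ cells (30 to 270 each, against 0 to 2 in Sertoli-like cells), so the count is a description. Rhox9, under the minimum, had 12 UMIs (2.16 CPM) in germ cells and 3 (1.29 CPM) in Sertoli-like cells. None of the 9 passed 4-fold in either direction between differentiating-like and undifferentiated cells (median −0.23). In the Rhox2, Rhox3, Rhox4 and Rhox7 copies 28.7 to 100% of the 50-base stretches at the transcript end were shared with another gene, so their separate counts are uncertain.

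Rhox1, which shares none, was at 53.8 CPM (45.1 to 63.8) in SSC-like, 61.1 (48.9 to 75.3) in progenitor-like, 29.5 (20.8 to 40.7) in meiotic-low and 32.0 (17.0 to 54.7) in meiotic-high cells. It was thus lower, not higher, in differentiating-like cells (log2 ratio −0.91, from −1.38 to −0.46). Rhox7a was at 26.3, 29.5, 30.3 and 7.39 CPM over the same clusters, the last on 3 UMIs as for Rhox10. Rhox8 was the Rhox gene with the most UMIs in Sertoli-like cells, where Rhox5 followed with 10 and no other had more than 3. Its neighbours on the chromosome, Rhox7a and Rhox7b, had 0 and 2 UMIs there and 148 and 264 in germ cells.

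**Figure D4:**
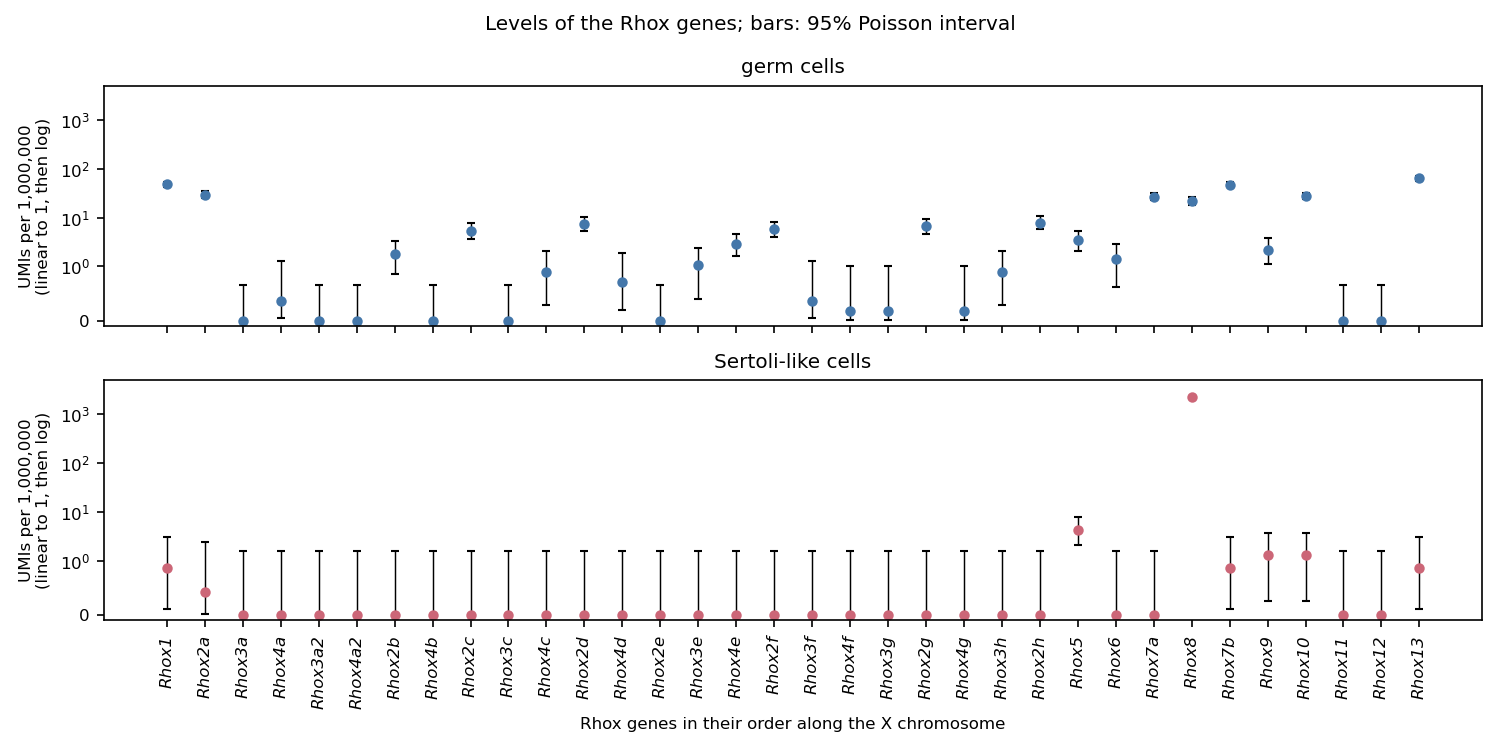
Level of each of the 34 Rhox genes in germ cells (blue) and Sertoli-like cells (red), in their order along chromosome X, on an axis that is linear up to 1 and logarithmic above, with exact 95% Poisson intervals. Rhox8 is the single point above 1000, in Sertoli-like cells, and lies between Rhox7a and Rhox7b, which were counted mostly in germ cells; levels are not corrected for transcript length.

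Genes with the most similar pattern were ranked by Pearson r of log2(CPM + 10) over the 11 clusters among 9069 genes with at least 100 UMIs. These clusters share a library and many genes mark whole lineages, so r is a description. For Rhox8 they were Hsd17b3 (r = 0.997), a testosterone-forming enzyme, then Plppr4, Tnni3, Cst9 and 4933402E13Rik. For Rhox10 they were Henmt1 (r = 0.990), which methylates piRNAs, then Rhox7a, 1700016K19Rik, Arl14epl and Piwil2, a piRNA-binding protein. For Rhox13 they were Fam90a1b (r = 0.987), Mms22l, Gm43409, Hormad1 and Dmc1. For Esx1 they were 1700013H16Rik (r = 0.978), Snx16, Ly6k, Gm14698 and Prss50. For Rhox5 the list included Numb (r = 0.905), Cnnm3, Arhgap26 and Csnk2a1, and rests on 31 UMIs.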

How the data were processed

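Chromium single-cell libraries of THY1-selected testis cells, spiked with unselected cells and pooled from 3 mice, were processed by the authors with Cell Ranger 2.1.0 (submitters' processing notes) against mm10, and UMI counts per gene and barcode were deposited without normalization. Totals were 11358045 UMIs, 2655 to 44915 per barcode with a median of 9115. Depth limits the precision, and the intervals cover counting error only.

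A cell needed 500 or more detected genes, a mitochondrial share below 10% and no doublet call by scrublet (scanpy 1.11.5, expected rate 0.01), which left 920 cells: 10 barcodes failed the gene limit, 36 the mitochondrial limit and 4 were called doublets. That caller marked few barcodes, and unrecognised doublets may remain. Cells were clustered with Seurat 5.3.0 in R 4.3.3 (14 principal components, resolution 0.5, mean.var.plot variable genes), and germ cells were clustered again. Clusters were named from fixed markers by the mean standardized difference of log-normalized expression. A name needed 3 markers detected in 10% of the cells.

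CPM are summed UMIs of a class per 1000000. Intervals were exact Poisson, conditional binomial (ratios) or binomial (shares). Genes with no UMI in 1 class were set to a floor of 3 counts in that class for ratios. No p-value was computed. The genes named were the 5 members, other Rhox genes with at least 20 UMIs (and Rhox9, below it), and per member the 5 most similar genes. Added to these were genes of the marker, Rhox background, meiotic entry and homeobox lists. Results for 2 of these genes are not reported here. The members and lists were chosen with earlier results of these data known, and the meiotic-high cluster was chosen after seeing the data. The scripts were tested on simulated data. Alternatives covered filters, doublets, variable genes, resolution, denominator, averaging, marker-based classes and thinning. Promoter sequences are from RefSeq (4 of 5 members matched).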

Additional observations from a re-analysis of the deposited data

How the results depend on the processing

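No paired analysis was possible because there is 1 library. Of the recomputed values, 195 stayed within the counting interval of the reported value (or near it, for the background percentages) and 18 moved. The sign changed for Rhox5 between Sertoli-like and germ cells (−1.47 to 1.05) and for Rhox8 and Rhox10 between differentiating-like and undifferentiated cells, each with an interval that holds 0. The SSC-like over progenitor-like log2 ratio ran from −1.26 to −0.39 for Rhox10 and from 0.33 to 0.76 for Rhox13. A mitochondrial limit of 5% left 67 germ cells (median 5316 UMIs) and 54 Sertoli-like cells, against 324 and 256 in the main setting. With it the log2 ratio of Sertoli-like to germ cells was −1.47 for Rhox5, 7.29 for Rhox8 and −3.76 for Esx1. The first and last are limits with a count of 0 set to the floor, and the germ stages could not be named. Rhox8 was at 6.38 with classes from marker UMIs. Rhox13 was at 1.62 over undifferentiated cells with germ cells divided by a marker score. With variable genes by vst, chosen after seeing the data for this comparison, the cluster holding the 32 meiotic-high cells had 81 cells. Of these, 49 had both Rhox13 and Esx1. Its log2 ratios over undifferentiated cells were 2.07 for Rhox13, 5.07 for Esx1 and −0.32 for Rhox10. In the other clusterings with more than 1 differentiating-like cluster the meiotic-high cluster had 32 to 39 cells, among them the same 32. A resolution of 0.3 gave 1 differentiating-like cluster and no progenitor-like cells, so those comparisons were not run. Thinned to 5000 UMIs, the shares of cells with a UMI were 1.43% (Rhox5), 10.0% (Rhox8), 8.96% (Rhox10), 25.4% (Rhox13) and 15.8% (Esx1) in germ cells, and 0.847% for Rhox5 in Sertoli-like cells, by construction on fewer UMIs. At 2-fold, the background was 24.3% higher and 27.4% lower in Sertoli-like cells and 8.11% higher and 10.4% lower in differentiating-like cells. With no minimum count 9.57% were scored as higher in differentiating-like cells. That share cannot serve as a background, because a count of 0 was set to 3. A gene with 0 UMIs in differentiating-like and 1 in undifferentiated cells, such as Rhox4f, then gets a log2 ratio of 2.81. Apart from thinning, the fold and the minimum count, the cause of these moves was not tested.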

Other observations

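Other homeobox genes were compared in the same way, from a list of 158 symbols. Of these, 47 had enough UMIs in Sertoli-like and germ cells. In Sertoli-like cells 8 were at least 4-fold higher and 21 at least 4-fold lower, beside 13% and 13.2% of all genes. The median log2 ratio was −1.24 beside −0.10 for all genes. Between differentiating-like and undifferentiated cells 41 were tested (median −0.77 beside 0.09). At least 4-fold, 2 were higher and 13 were lower, beside 1.35% and 3.4% of all genes. The 13 include Lhx1, which is on the SSC list that named the stages. Apart from Pou5f1, the 13 reached 20 UMIs only through undifferentiated cells. The 2 that were higher were Lhx8, an LIM homeobox gene, at 16.9 against 1.80 CPM, and Crxos at 9.03 against 1.54 CPM.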
